A study of Sus scrofa with 20 samples.

Results

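The genes described here are those of the cytosolic ribosomal proteins, measured in the heart of female pigs after 3 schedules of coronary ischemia and after a sham operation. They were taken from the gene names given to the array's probe sets, as every single symbol that begins with RPL or RPS, the prefixes of the large and small ribosomal subunit, without the RPS6K kinases. Of 6765 genes with a symbol of their own, 64 were members, 38 with the prefix RPL and 26 with the prefix RPS. They comprised 58 proteins of the ribosome itself (34 large, 24 small) and 5 paralogs with names of their own (RPL22L1, RPL26L1, RPL36AL, RPL7L1 and RPS27L). The remaining symbol, RPS19BP1, names a protein that binds RPS19 and is no part of the ribosome.

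The cytosolic ribosome is built in the nucleolus from ribosomal RNA and one copy of nearly every ribosomal protein, and then translates mRNA in the cytoplasm. The mRNAs of ribosomal proteins begin with a 5′ terminal oligopyrimidine tract, the TOP motif, through which mTOR signalling and LARP1 control their translation. MYC raises the transcription of ribosome genes, and ribosome production increases in cardiac hypertrophy and in dividing cells.

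RCS pigs underwent 90 min of low-flow ischemia 6 times, once every 12 h. RCO pigs had 2 coronary occlusions of 10 min, each with 10 min of reperfusion, and this session was likewise given 6 times at 12 h intervals. SWOP pigs had that session of 2 occlusions a single time, with sampling after 24 h of reperfusion per the labels. Control pigs were sham-operated. Each group held 5 females, with 1 array for each pig, and the labels name no strain, genotype or age. The sources used here give neither the region of the heart that was sampled nor when RCO and RCS hearts were taken after the last episode.

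The values are deposited log2 signals of a 1-colour Affymetrix porcine array, and a difference of 1 on this scale is a doubling of signal. Array medians ran between 6.75 and 6.82. MYH7, the slow myosin heavy chain of ventricular muscle, was near the top of the scale in every group, with a mean log2 signal of 14.83 in RCS, 14.77 in RCO, 14.83 in SWOP and 14.87 in control hearts. A gene was called changed in a comparison at an adjusted p below 0.05 from limma, a linear model fitted to all probe sets and all 20 arrays, with Benjamini-Hochberg adjustment. The number of arrays limits precision: the standard error of a difference between 2 groups had a median of 0.081 (log2) over the members. In RNA from whole tissue, fewer cells of a type and less RNA per cell cannot be told apart.

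Ribosomal protein probe sets were among the brightest on the array. Their median log2 signal over all arrays was 13.26, against 8.13 for all genes, and 53 of 64 members had a mean above 12. The highest value on any array was 15.18. Only 3 members, RPL26, RPL30 and RPS15A, had a mean below 6, where signal lies near the dim end of the scale. A probe set's signal depends on its own probes, so these levels do not rank the amounts of the mRNAs.

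Signals of the group as a whole were highest in RCS hearts. For each array, the median over the 64 members of the log2 signal minus the control mean was 0.427, 0.378, 0.389, 0.381 and 0.283 in RCS replicates 1 to 5, 0.443, 0.212, 0.31, 0.166 and 0.075 in RCO, 0.264, 0.097, 0.043, 0.044 and 0.023 in SWOP, and −0.072, −0.002, 0.012, 0.02 and 0.055 in control hearts. All RCS arrays and all RCO arrays lay above all control arrays, while SWOP and control arrays overlapped. RCO hearts varied most among themselves, with an SD of 0.141 for this median, against 0.0533 in RCS, 0.0988 in SWOP and 0.0467 in control hearts. The number of members above their own control mean was 61 to 63 on the RCS arrays, 45 to 62 on the RCO arrays, 36 to 62 on the SWOP arrays and 8 to 50 on the control arrays.

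**Figure D1:**
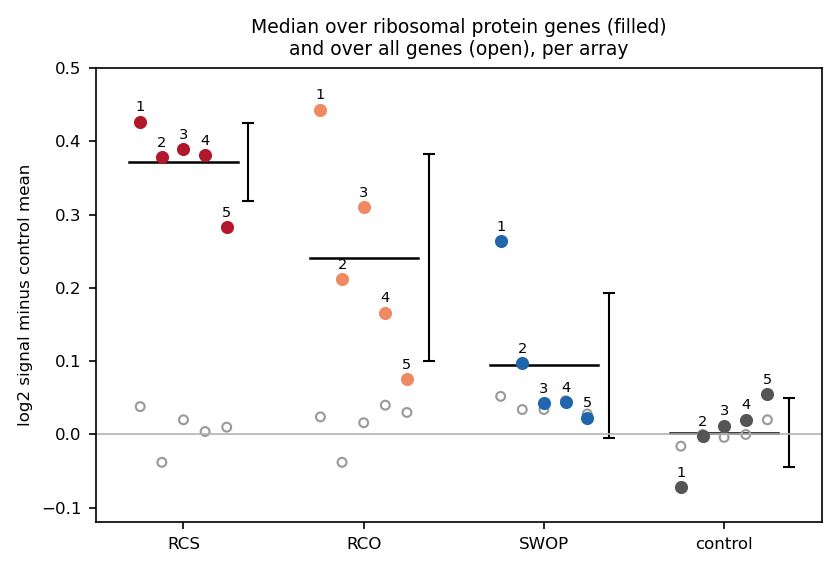
Median over 64 ribosomal protein genes (filled points) and over 6765 genes (open points) of log2 signal minus control mean, 1 point per array with its replicate number, bars giving mean and SD (n = 5). RCS arrays sit between 0.28 and 0.43, and RCO 1 and SWOP 1 stand highest in their groups at 0.44 and 0.26.

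The 2 arrays that stood highest within RCO and SWOP, replicate 1 of each, also had the highest signal of hybridization controls in the series. Averaged over the spike-in spots, log2 signal was 10.76 on RCO 1 and 10.59 on SWOP 1, and 9.90 to 10.33 on all other arrays. Replicate 1 had the highest spike-in signal in the other 2 groups too, at 10.12 on RCS 1, which had the highest member median of its group, and at 10.33 on control 1, which had the lowest. All RCS arrays (9.90 to 10.12) lay below all control arrays (10.25 to 10.33). The part of this in the results was not tested, and counts of called members without both arrays are given below.

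Repeated low-flow ischemia was accompanied by higher signal of almost every ribosomal protein gene. Against control, 57 of 64 members rose in RCS hearts and 1 fell, where 28.8% of all genes rose and 25.7% fell. Among the 2255 brightest genes 37.7% rose and 20.1% fell. The median difference over members was 0.37 (log2), and −0.004 over all genes. On 57 members all RCS arrays lay above all control arrays, a separation shown by 23.3% of genes. Changes were mostly small: 7 members differed by more than 1.5-fold and 2 by more than 2-fold. Of the ribosome's own proteins, 29 of 34 in the large subunit rose (median 0.33), as did 22 of 24 in the small subunit (median 0.36).

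**Figure D2:**
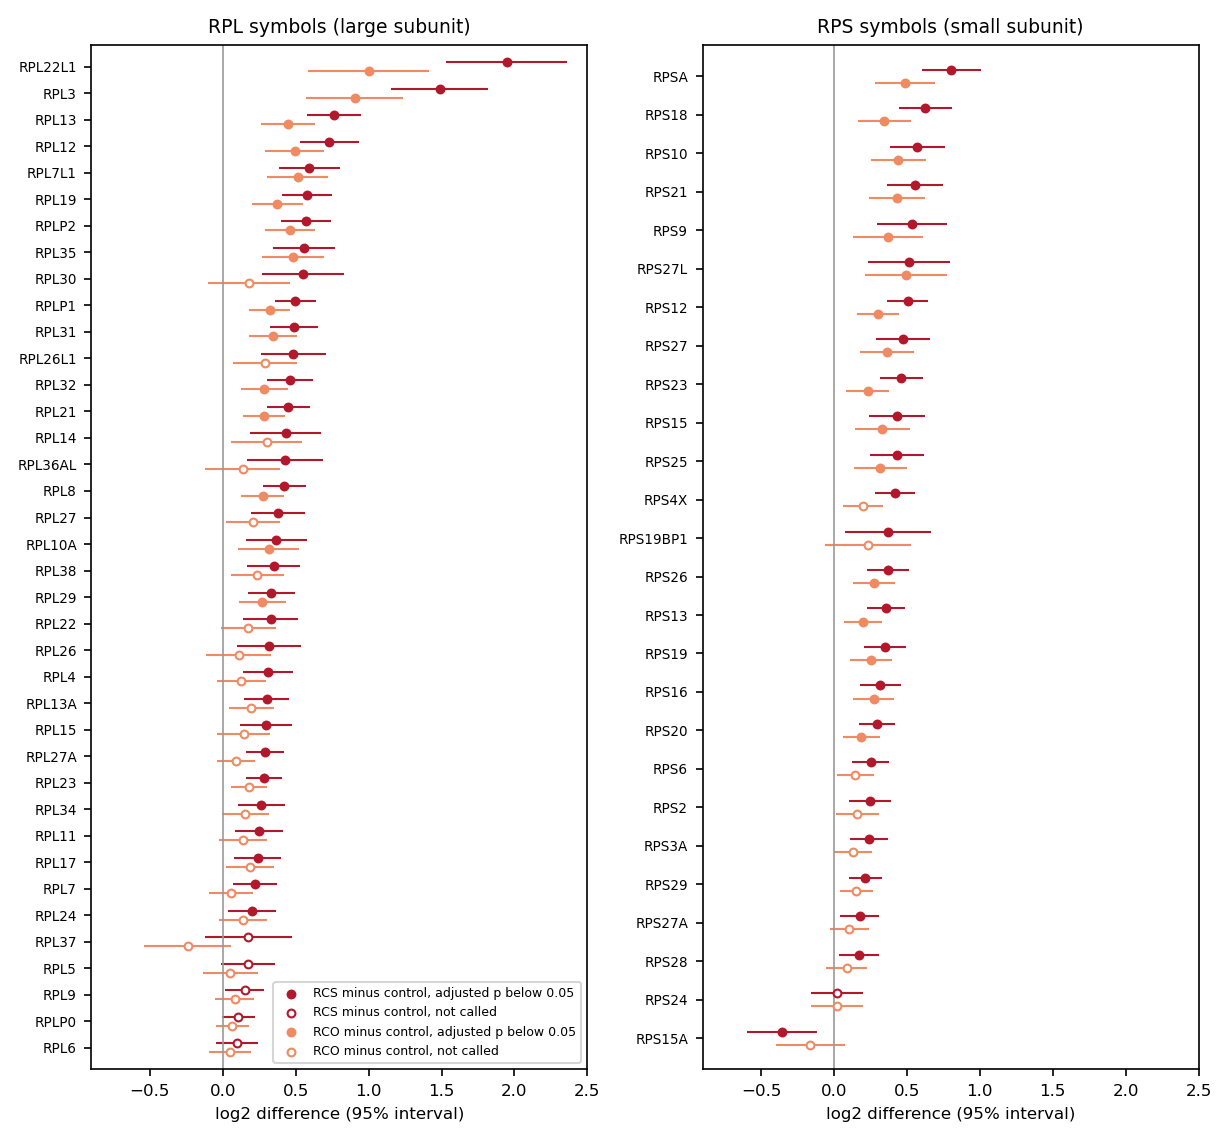
Log2 difference from control with its 95% interval for the RPL symbols (left) and the RPS symbols (right), in RCS (red) and RCO hearts (orange), ordered by the RCS value, filled points being adjusted p below 0.05 from limma. RPL22L1 at 1.95 and RPL3 at 1.49 stand apart in RCS hearts, and RPS15A is the only member called lower.

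RPL3, a core protein of the large subunit close to its catalytic centre, moved more than any other protein of the ribosome proper. Its log2 signal was 13.05, 13.18, 13.41, 13.21 and 12.99 in RCS hearts, 12.54, 12.84, 13.04, 12.47 and 12.03 in RCO, 12.58, 12.48, 12.47, 12.40 and 11.94 in SWOP, and 11.49, 11.42, 11.97, 11.76 and 11.76 in control hearts. Every RCS and RCO array lay above every control array, and only SWOP 5 overlapped control within SWOP. RPL3 rose by 1.49 ± 0.16 (log2, SE) in RCS hearts, 2.81-fold (adjusted p = 1.94e-06, limma).

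Within the large subunit RPL13 and RPL12 had the next largest differences among the ribosome's own proteins. RPL13 had 12.80, 12.74, 12.86, 12.76 and 12.69 in RCS hearts, 12.73, 12.46, 12.56, 12.36 and 12.18 in RCO, 12.55, 12.32, 12.28, 12.32 and 12.29 in SWOP, and 11.93, 11.90, 12.04, 12.01 and 12.17 in control hearts. RPL12, which forms the base of the stalk, had 13.44, 13.52, 13.64, 13.57 and 13.38 in RCS, 13.33, 13.39, 13.53, 13.20 and 12.92 in RCO, 13.11, 12.91, 12.92, 12.89 and 12.78 in SWOP, and 12.63, 12.72, 12.80, 12.92 and 12.83 in control hearts. For RPL13 no array of the 3 ischemia groups fell within the control range, whereas RPL12 overlapped control in SWOP hearts and touched its highest value with RCO 5. In RCS hearts RPL13 rose by 0.76 ± 0.09 (adjusted p = 3.79e-06, limma) and RPL12 by 0.73 ± 0.10 (adjusted p = 1.31e-05, limma).

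In the small subunit RPSA changed most. This ribosomal protein is also known as the laminin receptor. Its log2 signal was 13.66, 13.73, 13.90, 13.73 and 13.69 in RCS hearts, 13.48, 13.54, 13.67, 13.37 and 13.06 in RCO, 13.29, 12.92, 12.95, 13.04 and 12.96 in SWOP, and 12.88, 12.85, 12.95, 12.94 and 13.07 in control hearts. RCS arrays stood clear of control, and RCO arrays did so except RCO 5. The difference in RCS hearts was 0.80 ± 0.10 (1.75-fold, adjusted p = 5.67e-06, limma).

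The stalk proteins, which recruit elongation factors to the ribosome, did not move alike. RPLP1 and RPLP2, the acidic proteins at the stalk's tip, rose in RCS hearts by 0.50 (13.19 ± 0.07 in RCS, 12.70 ± 0.08 in control, SD, n = 5 each) and by 0.57 (12.01 ± 0.09 in RCS, 11.44 ± 0.10 in control). RPLP0, their anchor, was not called, at 14.17 ± 0.03 in RCS and 14.06 ± 0.03 in control hearts, with a difference of 0.11 (95% interval −0.01 to 0.22). All RCS arrays of RPLP0 (14.13 to 14.20) nevertheless lay above all control arrays (14.02 to 14.09). With a gene's probe sets averaged in place of taking the brightest, the RPLP1 difference was 0.07 (adjusted p = 0.368, limma), since its dimmer probe set differed by −0.36.

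**Figure D3:**
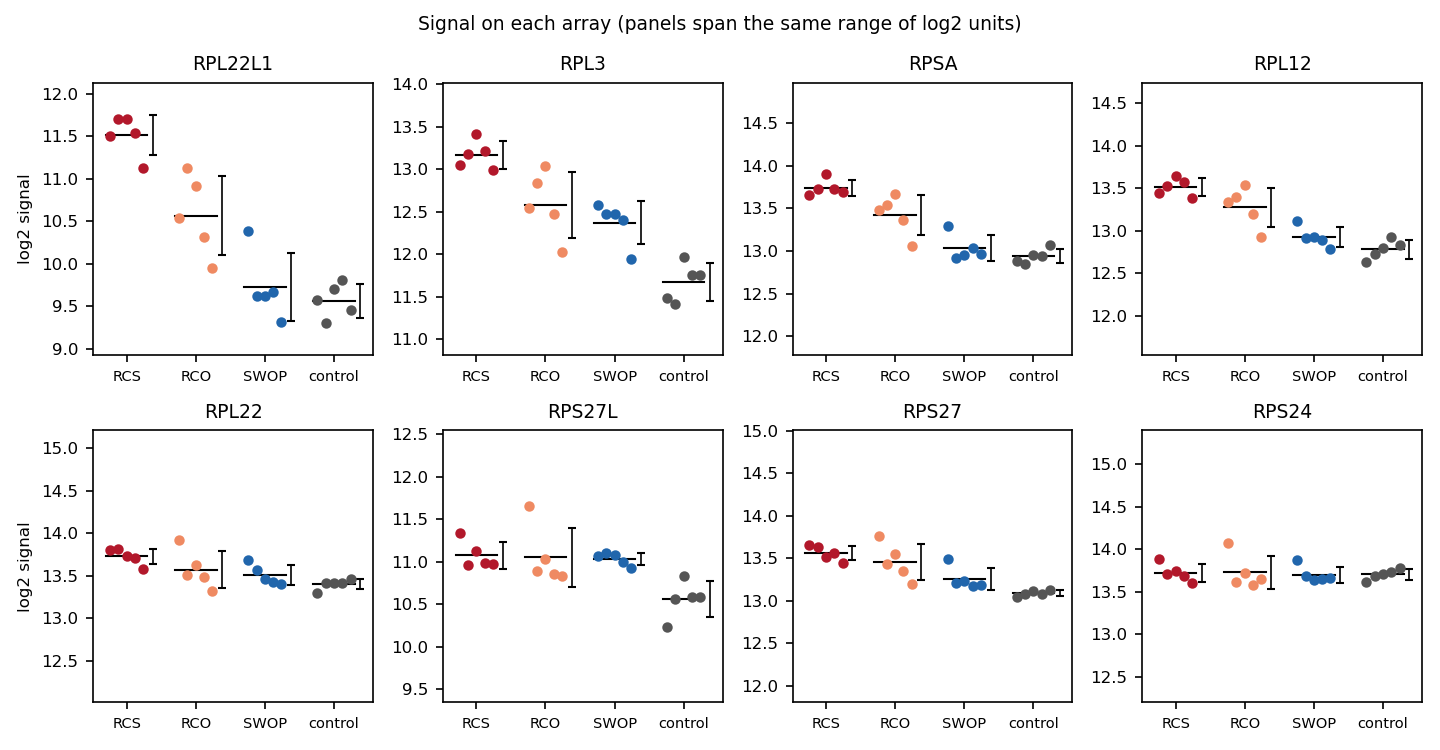
Log2 signal of 8 ribosomal protein genes on each array by group, with mean and SD (n = 5), every panel spanning the same number of log2 units. RPL22L1 and RPL3 separate RCS from control most widely, and RPS24 is level in all groups.

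Several members are also known for roles outside the ribosome. RPL5 and RPL11 bind MDM2 when free and so release p53. RPL11 rose by 0.25 in RCS hearts (14.06 ± 0.08 in RCS, 13.81 ± 0.02 in control, adjusted p = 0.0150, limma), while RPL5 differed by 0.17 (95% interval −0.02 to 0.36) and was not called. RPS6, the substrate of the S6 kinases downstream of mTOR, rose by 0.25, RPS19, which is mutated in Diamond-Blackfan anaemia in man, by 0.35, and RPL13A, a subunit of the GAIT translation silencer in human myeloid cells, by 0.30. The RPL13A value was 0.03 (adjusted p = 0.765, limma) with its 3 probe sets averaged. RPS27A, made as a fusion with ubiquitin, rose by 0.18 (adjusted p = 0.0306, limma), a call that was lost without RCS 1, RCS 2, control 1 or control 3, with adjusted p up to 0.0646.

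The 6 members not called in RCS hearts were RPL37, RPL5, RPL6, RPL9, RPLP0 and RPS24. RPS24, of the small subunit, had 13.88, 13.71, 13.74, 13.68 and 13.60 in RCS hearts, 14.07, 13.61, 13.72, 13.58 and 13.65 in RCO, 13.87, 13.68, 13.64, 13.65 and 13.66 in SWOP, and 13.61, 13.69, 13.71, 13.73 and 13.78 in control hearts. Its groups overlapped throughout, and its RCS difference was 0.02 (95% interval −0.16 to 0.20), an interval that ends below the median of the members. RPS15A, also of the small subunit, was the one member that fell, by 0.35 (4.34 ± 0.15 in RCS, 4.69 ± 0.13 in control, adjusted p = 0.0161, limma). Its probe set is among the 3 dim ones, and the call was lost after quantile normalization (−0.23, adjusted p = 0.0940, limma) and after cyclic loess (−0.23, adjusted p = 0.0833, limma). RPL26, likewise dim, rose by 0.32 in RCS hearts, a call lost without RCS 3 (adjusted p = 0.0646, limma) or control 5 (adjusted p = 0.0507, limma).

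The paralog RPL22L1 showed the widest difference of all members. RPL22 and RPL22L1 are closely related RNA-binding proteins that can replace each other in the large subunit, and in mouse RPL22 holds down RPL22L1 expression. RPL22L1 had 11.50, 11.70, 11.70, 11.54 and 11.12 in RCS hearts, 10.54, 11.12, 10.91, 10.31 and 9.95 in RCO, 10.39, 9.62, 9.62, 9.67 and 9.32 in SWOP, and 9.57, 9.30, 9.70, 9.81 and 9.45 in control hearts. All RCS and RCO arrays lay above the control range, the lowest RCS array equalled the highest RCO array, and SWOP overlapped control. In RCS hearts it rose by 1.95 ± 0.20 (3.85-fold, adjusted p = 1.46e-06, limma). RPL22 itself had 13.80, 13.81, 13.73, 13.71 and 13.58 in RCS, 13.92, 13.51, 13.62, 13.49 and 13.32 in RCO, 13.68, 13.57, 13.46, 13.42 and 13.40 in SWOP, and 13.30, 13.41, 13.41, 13.41 and 13.46 in control hearts. RPL22 rose by 0.33 in RCS hearts (adjusted p = 0.00628, limma).

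To test whether a paralog and its counterpart changed by unequal amounts, the log2 signal of the counterpart was subtracted from that of the paralog within each array, for 4 pairs and 3 comparisons with control. These tests were chosen after the values had been seen, and only changes of this difference between groups carry meaning. RPL22, RPL7 and RPS27 were each much brighter than their paralog, and among bright members those of higher level differed less from control, as given below. An unequal change of signal may therefore come from the level of the probe sets, which was not tested. RPL22L1 minus RPL22 was higher by 1.62 in RCS and by 0.83 in RCO hearts than in control, with every RCS and RCO array above every control array (p = 0.00794 each, the smallest that 5 against 5 arrays can give, adjusted p = 0.0476 over 12 tests, two-sided exact permutation test). In SWOP hearts the change was 0.05 (p = 0.794, exact permutation test). Without control 2 the RCS change was 1.55, with all arrays still separated and p = 0.00794 (exact permutation test), and its adjusted p was 0.0952. In RCO hearts the change was 0.76 without control 2 (adjusted p = 0.0952) and 0.78 without control 5 (adjusted p = 0.0680, exact permutation test), again with all arrays separated. With 1 array left out the smallest p is again 0.00794, which passes over 12 tests only where a second test reaches it, so calls of these pairs that end without 1 array say little about their stability.

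The other paralogs changed less. RPL7L1, known from pre-ribosomal particles, rose by 0.59 in RCS hearts (10.58 ± 0.15 in RCS, 9.99 ± 0.18 in control, adjusted p = 1.35e-04, limma), and RPL7 by 0.22 (adjusted p = 0.0179, limma). The RPL7 call was lost after quantile normalization (0.10, adjusted p = 0.267, limma) and without RCS 2 or control 5. RPL7L1 minus RPL7 was higher by 0.46 in RCO hearts (adjusted p = 0.0476, exact permutation test) and by 0.37 in RCS hearts (adjusted p = 0.114, exact permutation test). In SWOP hearts it differed by 0.15 (adjusted p = 0.369, exact permutation test). The RCO call ended without any one of control 1, 2, 3 and 4 or RCO 1, 2, 3 and 4, at 0.40 to 0.49, while the RCS change was called without RCS 2 (0.47).

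RPS27L, induced by p53 in human cells, was the paralog that rose after the single session too. It had 11.34, 10.96, 11.12, 10.98 and 10.97 in RCS hearts, 11.66, 10.89, 11.03, 10.85 and 10.83 in RCO, 11.07, 11.10, 11.08, 11.00 and 10.93 in SWOP, and 10.23, 10.56, 10.83, 10.59 and 10.58 in control hearts. All RCS and SWOP arrays exceeded all control arrays, and RCO 5 equalled the highest control. The 3 differences were close, at 0.52 in RCS (adjusted p = 0.00423), 0.49 in RCO (adjusted p = 0.0240) and 0.48 in SWOP hearts (adjusted p = 0.0380, limma). They share the same control arrays. RPS27L minus RPS27 was higher by 0.31 in SWOP hearts (adjusted p = 0.0476, exact permutation test), a call that ended when any one array other than SWOP 1 was left out. It differed by 0.13 in RCO (adjusted p = 0.497) and by 0.04 in RCS hearts (adjusted p = 0.762, exact permutation test). RPS27 itself rose by 0.47 in RCS and by 0.37 in RCO hearts, and differed by 0.16 in SWOP hearts without a call. With its probe sets averaged both calls were lost, at 0.24 in RCS (adjusted p = 0.125) and 0.19 in RCO hearts (adjusted p = 0.355, limma). RPL26L1 minus the dim RPL26 differed by 0.12 in SWOP, 0.18 in RCO and 0.17 in RCS hearts (adjusted p between 0.369 and 0.6, exact permutation test). RPL36AL rose by 0.43 and RPL26L1 by 0.48 in RCS hearts, and neither was called in RCO or SWOP hearts. RPS19BP1 rose by 0.37 in RCS hearts (adjusted p = 0.0375, limma), which no longer held without any one of RCS 1, 3 and 4 or control 1, 2 and 4, after quantile normalization (adjusted p = 0.167) or after cyclic loess (adjusted p = 0.105, limma).

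Repeated occlusion gave a smaller and less even rise. Against control, 31 of 64 members rose in RCO hearts and 0 fell, where 11.3% of all genes rose and 4.26% fell. Among the 2255 brightest genes 16.9% rose and 5.41% fell. A further 12 members had an unadjusted p below 0.05, which makes 43 in all, against 34.9% of all genes. The median difference was 0.23, against 0.01 over all genes, and on 28 members all RCO arrays lay above all control arrays, as for 5.81% of genes. By subunit 13 of 34 large and 15 of 24 small subunit proteins rose, with medians of 0.19 and 0.24, and the difference between subunits was not tested. RPL22L1 rose by 1.0 ± 0.20 (2.0-fold, adjusted p = 0.00411, limma), RPL3 by 0.90 ± 0.16 (adjusted p = 0.00219, limma), RPL7L1 by 0.51 (adjusted p = 0.00372, limma), RPL12 by 0.49 (adjusted p = 0.00372, limma) and RPSA by 0.49 (adjusted p = 0.00425, limma). RPLP1 and RPLP2 rose by 0.32 and 0.46, and RPLP0 differed by 0.07 (95% interval −0.05 to 0.18). The RPLP1 call was lost with its probe sets averaged (0.18, adjusted p = 0.0691, limma) and with only the 2 groups fitted (adjusted p = 0.0673, limma).

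Fitted to RCO and control arrays alone, which changes both the estimate of spread and the number of arrays behind it, 6 members rose. Fits of that kind called 5 members in SWOP and 58 in RCS against control, where the main fit called 3 and 58. The main fit shares 1 estimate of spread among the groups, and the median SD of members was 0.160 in RCO and 0.0713 in control hearts. The part of this in the counts was not tested. The number was 19 without RCO 3, 20 without control 1, and 26 without RCO 1 and SWOP 1. The RPS27L call was lost with only the 2 groups fitted (adjusted p = 0.124, limma), without RCO 2 and 3 (adjusted p = 0.0505, limma), without RCO 3 (adjusted p = 0.0514, limma) and without control 1 (adjusted p = 0.0664, limma). That of RPS19 (0.26) was lost in the same 4 settings and after cyclic loess, with adjusted p between 0.0565 and 0.110 (limma).

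After the single session 24 h earlier, few members differed. In SWOP hearts 3 of 64 rose and 0 fell against control, where 4.66% of all genes rose and 3.5% fell, so the members' share of calls was near the background. Among the 2255 brightest genes 8.07% rose and 0.798% fell. An unadjusted p below 0.05 was found for 10 members, and for 28.4% of all genes. Without SWOP 1 and RCO 1, 4 members rose. The median difference was 0.09, against 0.04 over all genes, and turned to −0.0162 after cyclic loess. There were 7 members with all SWOP arrays above all control arrays, a separation shown by 9.64% of genes. The members that rose were RPL3 by 0.69 ± 0.16 (1.62-fold, adjusted p = 0.0172, limma), RPS27L as given above and RPL13 by 0.34 ± 0.09 (adjusted p = 0.0279, limma).

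No call in SWOP hearts withstood every setting. That of RPL3 was lost without control 2 (0.63, adjusted p = 0.0523, limma) and after cyclic loess (0.57, adjusted p = 0.0668, limma). RPL13 was lost after quantile normalization (0.21, adjusted p = 0.183, limma), after cyclic loess (0.22, adjusted p = 0.169, limma), and without any one of control 1, 2 and 4 or SWOP 1, 2, 4 and 5, with adjusted p between 0.0505 and 0.0765 (limma). RPS27L was lost after quantile normalization (0.35, adjusted p = 0.119, limma), after cyclic loess (0.34, adjusted p = 0.130, limma), and without any one array of either group other than control 3, with adjusted p up to 0.0826 (limma).

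Between protocols, RCS hearts had higher signals than SWOP hearts, and differed less clearly from RCO hearts. Against SWOP, 48 of 64 members rose in RCS hearts and 0 fell, where 20.3% of genes rose and 17.7% fell, with a median of 0.28 against −0.02 over all genes. Without SWOP 1 and RCO 1 the number that rose was 54. On 30 members all RCS arrays lay above all SWOP arrays, as for 17.9% of genes. The largest differences were 1.79 for RPL22L1 (3.45-fold, adjusted p = 8.23e-06, limma), 0.79 for RPL3 (adjusted p = 9.39e-04, limma) and 0.71 for RPSA (adjusted p = 4.11e-05, limma).

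Against RCO, 10 members (15.6%) rose in RCS hearts and 0 fell, where 11.7% of genes rose and 9.9% fell, so the share that rose was near the background. The median difference was 0.12, against −0.01 over all genes, and 3 members were separated on all arrays, as for 3.52% of genes. RPL22L1 rose by 0.95 ± 0.20 (1.93-fold, adjusted p = 0.00499, limma), RPL3 by 0.58 (adjusted p = 0.0180, limma) and RPL37 by 0.42 (adjusted p = 0.0470, limma). The count was 16 without RCO 1, 20 without RCO 1 and SWOP 1, and 1 to 4 without any one of RCO 4, RCO 5, RCS 2, RCS 3 and RCS 4. Among these 3 genes RPL22L1 kept its call in every setting tried. RPL3 lost it without RCO 5 (adjusted p = 0.0547), without RCS 3 (adjusted p = 0.0573) and with only the 2 groups fitted (adjusted p = 0.0667, limma). RPL37 lost it without any one of RCO 1, 4 and 5 or RCS 2, 3, 4 and 5 (adjusted p up to 0.133, limma). The RPL37 call was also lost after quantile normalization (adjusted p = 0.0976) and after cyclic loess (adjusted p = 0.0906, limma). Array weights (adjusted p = 0.117), the 2 groups alone (adjusted p = 0.129) and leaving out RCO 1 and SWOP 1 (adjusted p = 0.121, limma) ended it too.

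RCO against SWOP, the contrast of 6 sessions with 1, gave 7 members that rose and 1 that fell, where 5.54% of genes rose and 6.4% fell. The median difference was 0.13, against 0.02 over all genes, and no member had all RCO arrays above all SWOP arrays (3.28% of genes did). RPL22L1 rose by 0.84 ± 0.20 (adjusted p = 0.0147, limma) and RPSA by 0.39 (adjusted p = 0.0181, limma). RPL37, a large subunit protein whose probe set here had a moderate signal, fell by 0.52 (adjusted p = 0.0270, limma). It had 8.45, 9.16, 9.05, 8.68 and 9.02 in RCS hearts, 8.0, 8.59, 8.68, 8.56 and 8.45 in RCO, 8.71, 9.06, 9.14, 8.95 and 9.03 in SWOP, and 8.71, 8.89, 8.81, 8.71 and 8.36 in control hearts. For RPL37 all RCO arrays lay below all SWOP arrays, and RCO overlapped both RCS and control. The RPL22L1 call was lost with only the 2 groups fitted (adjusted p = 0.0669, limma) and without RCO 2 and 3 (0.54, adjusted p = 0.0888, limma). The count of called members was 20 without SWOP 1, 19 without RCO 5, 11 without SWOP 1 and RCO 1, and 1 to 4 without any one of RCO 1, RCO 2, RCO 3, SWOP 2, SWOP 3, SWOP 4 and SWOP 5. The RPSA and RPL37 calls were also lost, the first without RCO 3, SWOP 2 or SWOP 5 and the second without RCO 1, SWOP 2, SWOP 3, SWOP 4 or SWOP 5. With only the 2 groups fitted both were lost (adjusted p = 0.0844 for RPSA and 0.0522 for RPL37, limma). RPSA was lost without RCO 2 and 3 (adjusted p = 0.102) and RPL37 after cyclic loess (adjusted p = 0.0616, limma).

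In 57 of 64 members (89.1%) the group means ran in 1 order, RCS highest, then RCO, then SWOP, then control, which was the order of 17.9% of all genes. The mean was highest in RCS hearts for 61 members. The 7 members outside this order were RPL7, RPL37, RPLP0, RPS15A, RPS20, RPS24 and RPS27A. RPL37 was highest in SWOP hearts, RPS24 in RCO hearts and RPS15A in control hearts, and the other 4 in RCS hearts. For most members neighbouring groups in this order were not called different, as the counts between protocols show. The order was counted on the deposited signals only, and its step from control to SWOP depends on the scaling. The median SWOP difference from control over members was 0.09 on these signals and −0.0162 after cyclic loess. All members were read on the same arrays, so their shared order is not separate evidence from each gene.

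The spread among pigs differed between groups. The SD of a member had a median of 0.0739 in RCS, 0.160 in RCO, 0.104 in SWOP and 0.0713 in control hearts. In RCO and SWOP hearts RPL22L1 varied most, with SDs of 0.467 and 0.397, and in control hearts RPL3 did, with 0.224. Over all genes the medians were 0.165, 0.243, 0.125 and 0.146 in the same groups, so RCO hearts were the most variable there as well.

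Brighter members differed less from control. Among the 53 ribosomal proteins with a mean log2 signal above 12, the Spearman correlation across genes between control level and difference was −0.69 in RCS, −0.63 in RCO and −0.53 in SWOP hearts. These genes were read on the same arrays and the control mean enters both quantities, so the values describe the measurement and are given without a test. In RCS hearts the 26 dimmer of them had a median difference of 0.44, and the 27 brighter ones 0.29. RPL3 and RPL13 were among the dimmest of the 53, and RPS24 belonged to the brighter ones.

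**Figure D4:**
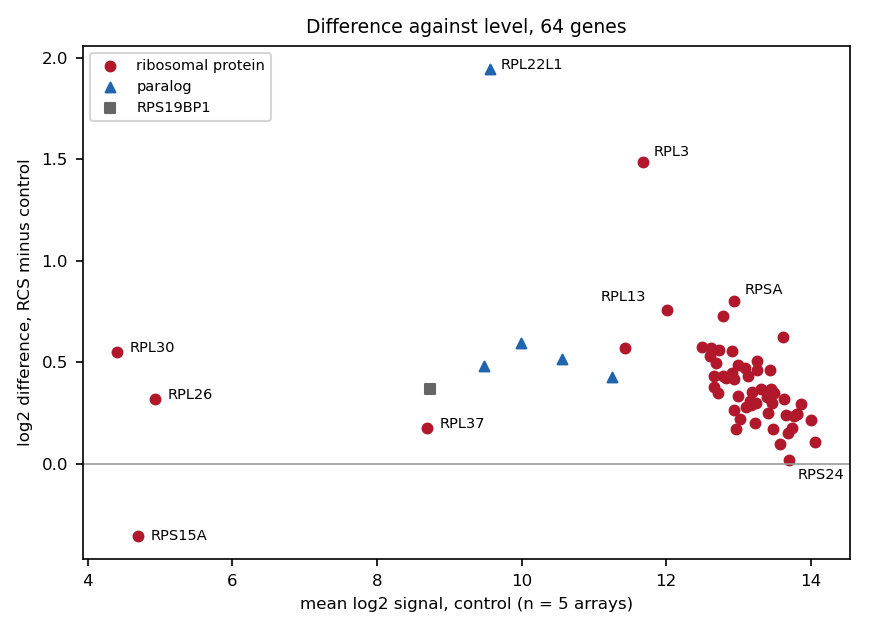
Log2 difference between RCS and control hearts against the mean control signal (log2, n = 5 arrays) for 64 genes, with ribosomal proteins as circles, paralogs as triangles and RPS19BP1 as a square. Above a control level of 12 the differences decline with level, and the 3 dimmest members scatter from −0.35 to 0.55.

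A total of 24 members had more than 1 probe set, which left 32 further probe sets, with a median log2 signal of 7.72. In RCS against control 13 of these rose and 3 fell (19.3% and 28.2% of all probe sets), and 22 had the sign of the brightest probe set of their gene. In RCO hearts 6 rose and 1 fell (5.9% and 4.81% of all probe sets) and 28 shared the sign. In SWOP hearts 2 rose and 1 fell (3.01% and 4.14% of all probe sets) and 19 shared it. Those that fell in RCS hearts belonged to RPL9 (−0.28), RPLP1 (−0.36) and RPS28 (−0.35). The RPS28 one, with a mean log2 signal of 8.66, was also the one that fell in RCO (−0.28) and SWOP hearts (−0.26). The representative probe set of RPS28 rose in RCS hearts, by 0.17, so the 2 probe sets of this gene were called in opposite directions. All 4 further probe sets above log2 12 rose in RCS hearts, for RPL27 (0.45), RPL31 (0.50) and RPS18 (0.74 and 0.66). RPS18, a protein of the small subunit's head singled out here after its values were seen, thus rose on 3 bright probe sets, the representative one by 0.63. That probe set had 14.28, 14.27, 14.23, 14.29 and 14.17 in RCS hearts, 14.02, 14.14, 14.13, 13.92 and 13.62 in RCO, 13.93, 13.86, 13.85, 13.82 and 13.60 in SWOP, and 13.70, 13.57, 13.62, 13.67 and 13.55 in control hearts. The RCS arrays lay above those of all other groups. Ribosomal protein genes have many processed pseudogenes in mammals, and 10 of the 64 representative probe sets carry a suffix for probes shared between transcripts. Those of RPL27, RPL31, RPS27L and RPS28 end in _s_at or _x_at, so their signal could include related sequences. The others of the 10 end in _a_at, a suffix for alternative transcripts of the same gene.

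Genes that act beside the ribosomal proteins were examined as lists, whose counts in RCS hearts stand against 28.8% of all genes that rose and 25.7% that fell. In RCO hearts these shares were 11.3% and 4.26%, and in SWOP hearts 4.66% and 3.5%. Of 51 measured genes for rRNA synthesis, processing and ribosome assembly, 20 rose and 4 fell in RCS hearts, with a median of 0.14. NOP16, a nucleolar protein of large subunit assembly, rose by 0.86 (8.90 ± 0.13 in RCS, 8.03 ± 0.21 in control), UTP18 of the small subunit processome by 0.65, NHP2, of the H/ACA particles that pseudouridylate rRNA, by 0.66, and the rRNA methyltransferase FBL by 0.60. Those that fell were TAF1B and POLR1E, of the RNA polymerase I machinery (−0.53 and −0.42), and the assembly factors RRS1 (−0.26) and BYSL (−0.25). In RCO hearts 3 rose and 0 fell, and in SWOP hearts 2 rose and 2 fell.

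Of 16 measured genes of other proteins whose mRNAs carry the TOP motif, 4 rose and 3 fell in RCS hearts, with a median of 0.05, where 28.8% of all genes rose and 25.7% fell. The poly(A)-binding protein PABPC1 rose by 0.78, NAP1L1, a histone chaperone, by 0.66, and EEF1B2, of the elongation factor that reloads EEF1A, by 0.53, while the initiation factor EIF4B fell by 0.76. In RCO and in SWOP hearts 1 of these genes fell, and 1 rose in RCO hearts and 0 in SWOP hearts. Of 7 ribosome-bound proteins outside the symbol pattern 4 rose and 1 fell in RCS hearts, 2 rose in RCO and 1 in SWOP hearts. FAU, whose product is cut into the small subunit protein RPS30, rose by 0.39, RACK1, a scaffold on the small subunit, by 0.27, and the ribosome-associated acetyltransferase NAA10 by 0.48. HABP4 fell by 0.33.

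Of 14 measured genes of MYC and mTOR control, 2 rose and 4 fell in RCS hearts, where 28.8% of all genes rose and 25.7% fell. The share of this list that fell was thus near the background. The cap-binding protein EIF4E rose by 0.62. SESN1, which restrains mTORC1 under amino acid shortage, fell by 0.65, MAF1, a repressor of RNA polymerase III, by 0.53, and TSC2, an inhibitor of mTORC1, by 0.45. MYC was not called, at 8.79, 8.51, 8.73, 8.55 and 8.23 in RCS and 6.48, 6.75, 7.23, 10.12 and 7.76 in control hearts (difference 0.89, adjusted p = 0.104, limma). Control 4 lay above every RCS array for MYC, and the other 4 controls lay below every RCS array. In RCO hearts 0 rose and 2 fell, and in SWOP hearts 1 rose and 0 fell. Of 7 measured p53 pathway genes, 2 rose and 2 fell in RCS hearts, 0 rose and 1 fell in RCO hearts, and 0 changed in SWOP hearts.

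Markers of several cell types moved in the same comparisons, in which 28.8% of all genes rose and 25.7% fell in RCS hearts. In RCO hearts 11.3% rose and 4.26% fell, and in SWOP hearts 4.66% and 3.5%. Of 10 measured cardiomyocyte markers, 8 fell and 0 rose in RCS hearts and 2 fell in RCO hearts. Their summed log2 signal was 133.93 to 139.18 in RCS, 138.06 to 140.54 in RCO, 140.64 to 141.97 in SWOP and 141.19 to 142.04 in control hearts. Of 6 fibroblast markers 4 rose in RCS and 2 in RCO hearts, with sums of 67.27 to 71.91 in RCS, 59.07 to 70.36 in RCO, 60.46 to 62.88 in SWOP and 56.03 to 63.10 in control hearts. Of 6 macrophage markers 4 rose in RCS and 3 in RCO hearts, with sums of 53.39 to 56.37 in RCS, 49.74 to 60.06 in RCO, 45.97 to 50.27 in SWOP and 45.70 to 50.33 in control hearts. By the sums of fibroblast and macrophage markers the RCS arrays thus stood clear of control arrays, and the RCO arrays ranged from control levels upward for both. Not every marker moved so. COL3A1 (7.54 in RCS, 7.61 in control) and DCN (12.37 in RCS, 12.46 in control) had lower means in RCS hearts. CD14 (6.86 in RCS, 6.70 in control) and C1QA (8.94 in RCS, 8.90 in control) differed little.

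Smooth muscle markers rose for 4 of 5 measured and fell for 1 in RCS hearts, rose for 1 in RCO and for 2 in SWOP hearts, with sums of 53.62 to 56.27 in RCS, 50.94 to 54.85 in RCO, 50.48 to 53.47 in SWOP and 48.07 to 51.22 in control hearts. Among those that rose in RCS hearts was DES (13.68 in RCS, 12.89 in control), which cardiomyocytes also express, so its rise is not particular to smooth muscle. All 3 measured markers of dividing cells rose in RCS hearts, 2 in RCO and 1 in SWOP hearts, with sums of 25.89 to 27.24 in RCS, 23.28 to 27.17 in RCO, 23.91 to 25.10 in SWOP and 21.25 to 23.73 in control hearts. Adipocyte markers fell for 3 of 5 in RCS, 2 in RCO and 1 in SWOP hearts, and endothelial markers fell for 1 of 6 in RCO hearts. The adipocyte list includes LPL, which cardiomyocytes also express. Of 6 genes listed for lymphocytes 1 rose in RCS hearts, PTPRC, which leukocytes in general carry (7.44 in RCS, 6.78 in control). CD3E, CD3D, CD2, CD4 and CD8A had lower means in RCS than in control hearts and were not called, and the list's median difference was −0.18. Neither of the 2 erythroid markers was called against control in any group. The atrial natriuretic peptide gene NPPA, 1 of 2 atrial markers measured, rose by 3.42 in RCS hearts, and the other, the atrial light chain MYL4, differed by −0.30 and was not called. The part of these cell types in the ribosomal protein differences was not tested.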

How the data were processed

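The files hold 1 value for each probe set and array in 20 samples, grouped by the labels' protocol. These log2 signals were made by the authors before they were deposited; RMA and MAS5 are named in the submitters' processing notes, with no version or role. The log base is not stated and was taken as 2 from the range. Per the labels' protocols, total RNA was extracted with Trizol and primed with oligo(dT). Of 24123 probe sets, 124 control spots were left out and 23999 tested without further normalization.

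Under R 4.3.3, limma 3.58.1 (lmFit, eBayes) fitted the group means (16 residual degrees of freedom), and the 6 comparisons were tested two-sided with Benjamini-Hochberg adjustment over all probe sets. The p-values set a difference between groups against the spread among arrays. With 1 array for each pig, that spread holds variation of animals and of arrays together. Each gene is given by its brightest probe set over all arrays. Probe sets with 1 symbol numbered 10069, with several 198 and with none 13732. The 96 probe sets of the members carry the same symbol in RefSeq by gene ID. Figures were drawn with matplotlib 3.10.9 and tables made with numpy 2.4.6 and pandas 2.3.3 under Python 3.11.15. The fit was tested on simulated data.

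The members, lists and tests were chosen with earlier results of these data known. Named are the 5 called members of largest difference in each direction against control, the 3 largest between protocols, the stalk proteins, the paralog pairs, RPS6, RPSA, RPS27A, RPL5, RPL11, RPL13A, RPS19 and RPS19BP1. RPS24, RPS18 and members named only in a count were chosen after their values were seen. RPL3L, RPL39, RPL39L, RPL36A and RPS3, also under the rule, had no probe set with a single symbol and were not analysed here. From other lists up to 4 called members of smallest p are named, and MYC, singled out after its value was seen. The list for rRNA and assembly departs from this, with 4 that rose and the 4 that fell, and no gene is named under the p53 list. Alternatives were quantile normalization, cyclic loess, median centring, dim probe sets (below the 30th percentile) left out, array weights, an intensity trend (robust), the replicate number as a block, a fit of the 2 groups alone, a limit of 1.5-fold, an average over a gene's probe sets, RCO replicates 2 and 3 left out, RCO 1 and SWOP 1 left out (chosen after seeing the data) and each array left out in turn.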

Additional observations from a re-analysis of the deposited data

Results flagged for a closer look

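Within a group of 5 arrays, 1 array stood apart from the other 4 for 10 of 104 gene and group combinations examined, where chance sets apart about 1 in 20. The mark of standing apart was a gap to the nearest array above 0.71 of the group's whole range (Dixon's critical value). The combinations covered only some of the members, and their genes were read on the same arrays. They are thus not independent, and 10 of 104 is no test against the share of 1 in 20. SWOP 1 was the high array in 7 of the 10 that stood apart. Its log2 signal was 12.55 for RPL13 (others 12.28 to 12.32), 13.70 for RPL13A (13.42 to 13.45), 13.23 for RPL5 (12.86 to 12.95) and 13.16 for RPL7 (12.94 to 12.98). It was 14.11 for RPLP0 (up to 14.03), 9.41 for RPS19BP1 (8.77 to 8.93) and 13.49 for RPS27 (13.17 to 13.23). This array also had the highest spike-in signal of its group, and the part of that was not tested. RCO 1 stood high for RPS27L, at 11.66 (others 10.83 to 11.03). The low arrays were SWOP 5 for RPL3, at 11.94 (12.40 to 12.58), and RCS 5 for RPL11, at 13.93 (14.07 to 14.12).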

How the results depend on the processing

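Against control, the number of members called in SWOP hearts (3) was 1 after quantile normalization, 0 after cyclic loess, 10 with array weights, 5 with only the 2 groups and 1 at a limit of 1.5-fold, and the median difference reversed to −0.0162 after cyclic loess, so its direction depends on the scaling. In RCO hearts (31) it was 6 with only the 2 groups, 14 without RCO 2 and 3, and 2 at 1.5-fold. In RCS hearts (58) it was 7 at 1.5-fold, and the median was 0.30 after quantile normalization. For RCO against SWOP (8) it was 23 after cyclic loess, 5 after median centring, 5 with an intensity trend, 15 with array weights, 0 with only the 2 groups, 1 without RCO 2 and 3, and 1 at 1.5-fold. For RCS against SWOP (48) it was 4 at 1.5-fold, and the median was 0.40 after cyclic loess. For RCS against RCO (10) it was 1 with only the 2 groups, 20 without SWOP 1 and RCO 1, and 1 at 1.5-fold. With only the 2 groups the count thus fell in each comparison with RCO hearts. It was 58 in RCS against control and 47 in RCS against SWOP, though these fits also used fewer arrays. Where no cause is named, the cause was not tested.

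Leaving out each array in turn gave 0 to 3 called members in SWOP (median 0.05 to 0.11), 19 to 36 in RCO (0.18 to 0.28) and 54 to 58 in RCS (0.33 to 0.39) against control. It gave 1 to 20 in RCO against SWOP (0.09 to 0.18), 35 to 49 in RCS against SWOP (0.26 to 0.33) and 1 to 16 in RCS against RCO (0.08 to 0.19). The limit of 1.5-fold was left out of the following tally. Of 25 named members, 22 were called in RCS against control, and 14 of these kept the call in every other setting. In RCO it was 6 of 11 and in SWOP 0 of 3, and no named member reversed. Replicate numbers are shared by the groups, but the labels tie them to no animal or day, and over 30 same-numbered pairs the correlation of deviations ran from −0.179 to 0.44 (median 0.073), so they were not taken as pairs. With the replicate number as a block, 4, 30, 58, 8, 47 and 12 members were called in SWOP, RCO and RCS against control, RCO and RCS against SWOP, and RCS against RCO. The comparison of RPL3 with RPL3L was not run, because no probe set carried RPL3L as its single symbol.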

Other observations

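The array also carries spots for pig ribosomal RNA among its controls, which were left out of the tests. On the 28S rRNA spot with shared probes, mean log2 signal was 10.67 ± 0.20 in RCS, 10.88 ± 0.19 in RCO, 10.81 ± 0.20 in SWOP and 11.36 ± 0.31 in control hearts (SD, n = 5 each). On the other 28S spot it was 8.99 ± 0.43 in RCS, 9.38 ± 0.77 in RCO, 8.82 ± 0.31 in SWOP and 10.43 ± 1.30 in control hearts. The pair of 18S spots had 8.71 ± 0.18 and 6.57 ± 0.16 in RCS, 9.01 ± 0.13 and 6.97 ± 0.17 in RCO, 8.81 ± 0.25 and 6.91 ± 0.47 in SWOP, and 9.18 ± 0.22 and 6.95 ± 0.21 in control hearts. For 5S rRNA the signal was 5.53 ± 0.34 in RCS, 4.97 ± 0.36 in RCO, 4.85 ± 0.35 in SWOP and 4.79 ± 0.13 in control hearts. Since cDNA was primed with oligo(dT) and rRNA lacks a long poly(A) tail, these spots do not measure the amount of ribosomes.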
